A study of Mus musculus with 4 samples.

Results

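Glycolysis, glycogen turnover, the pentose phosphate pathway and lactate transport were described by 30 genes, taken by name from a list of functions, of the 55401 genes in the tables. No measured value of the genes is part of that rule, but the list was chosen with earlier results of these data known. All 30 were found by symbol, and all 30 passed the filter on low counts. RNA was measured in mouse optic nerves in 4 libraries, of which 2 carry the genotype Dor WT and 2 carry Dor cKO. A cKO is a conditional knockout, and Dor is another name of Trp53inp2, a gene for a protein of autophagy and of nuclear receptor coactivation. No treatment was named for either group. Age, sex, strain, how many animals went into a library and what drives the deletion are not stated in the sources used here. A tag that reads like a postnatal age stands in the names of the Dor WT tables but not of the Dor cKO tables, so whether the groups match in age is not known. Nothing says that the libraries came from separate animals, so p-values measure only the spread between these libraries, which may be technical.

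The optic nerve holds the axons of retinal ganglion cells, the oligodendrocytes that wrap them in myelin, and astrocytes, which are the main store of glycogen in white matter. Glycolysis splits glucose into pyruvate, and lactate dehydrogenase converts pyruvate and lactate into each other. Monocarboxylate transporters carry lactate across membranes, and in the optic nerve lactate from glia is known to fuel axons. The pentose phosphate pathway starts from glucose 6-phosphate: its oxidative branch makes NADPH for lipid synthesis and for defence against oxidants, and its other branch returns sugar phosphates to glycolysis.

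The libraries held between 17263830 and 21595832 counts, with between 21889 and 22547 genes above 0. Trp53inp2 itself lay at 138 and 134 CPM in the Dor WT pair, against 105 and 107 CPM in the Dor cKO pair, where CPM is the count normalised to library size, scaled by TMM. Its RNA fell without being lost (log2 fold change -0.36, SE 0.04, edgeR adjusted p = 2.73e-08), and which part of the gene was deleted is not stated in the sources used here. The mean fragment length was 259.6 and 260.0 bases in the Dor WT libraries and 245.5 and 245.3 bases in the Dor cKO libraries, so it moved with genotype. All 12 mature oligodendrocyte markers fell, and their summed TPM (the deposited abundance, a unit per transcript length) was 25088 and 24860 in Dor WT against 14240 and 14183 in Dor cKO. Of the 10 astrocyte markers 9 rose and 1, Aqp4, fell, and their summed TPM went from 8396 and 8402 to 9201 and 9221. All 7 fibroblast markers rose, with a summed TPM of 4424 and 4389 in Dor WT against 5647 and 5606 in Dor cKO. Of 9 endothelial markers 5 rose, and their summed TPM went from 175 and 179 to 206 and 219.8. Of 9 microglial markers 5 rose and 1 fell, with summed TPM from 784 to 785 in Dor WT and from 869.8 to 875 in Dor cKO. Of 5 precursor markers 4 fell. Of 9 neuronal markers 1 rose and 1 fell, with a summed TPM of 148 and 147 in Dor WT against 146 and 137 in Dor cKO. On average 8 of the 9 lay above 1 TPM, while Pou4f1, which marks retinal ganglion cell bodies, was under 1 TPM in all 4 libraries. Of 9 pituitary markers 6 were tested and all 6 fell, from a summed 172 and 169.9 TPM in Dor WT to 19.3 and 19.0 TPM in Dor cKO, with Cga at 0 in both Dor cKO libraries. In such bulk samples, fewer cells of a type and less RNA per cell cannot be told apart, and the part of these shifts in the results on the 30 genes was not tested.

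Of the 30 genes, 13 rose and 7 fell in Dor cKO, and 10 did not pass the test, which was edgeR's quasi-likelihood test at an adjusted p under 0.05 over 16751 genes. Over all genes tested, 27.7% were called, 14.3% as higher and 13.4% as lower, against 66.7% of the 30. The 30 are abundant genes, and calls are frequent among abundant genes: at 100 CPM or more on average, 65.3% of all genes tested were called, against 14 of the 17 of the 30 at that level. The shifts were small. The median log2 fold change was 0.04 over the 30 and -0.00 over all genes tested, the range over the 30 was -0.55 to 0.44, and 8 of the 30 differed by at least 0.25, a size that 37.2% of all genes tested reached. In CPM, both Dor cKO libraries lay above both Dor WT libraries in 16 genes and below in 10, and the groups overlapped in 4. Of all genes tested 60.8% did not overlap, 30.2% with Dor cKO higher and 30.5% with Dor cKO lower. The summed TPM of the 30 was 6194 and 6163 in Dor WT against 6253 and 6229 in Dor cKO.

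**Figure D1:**
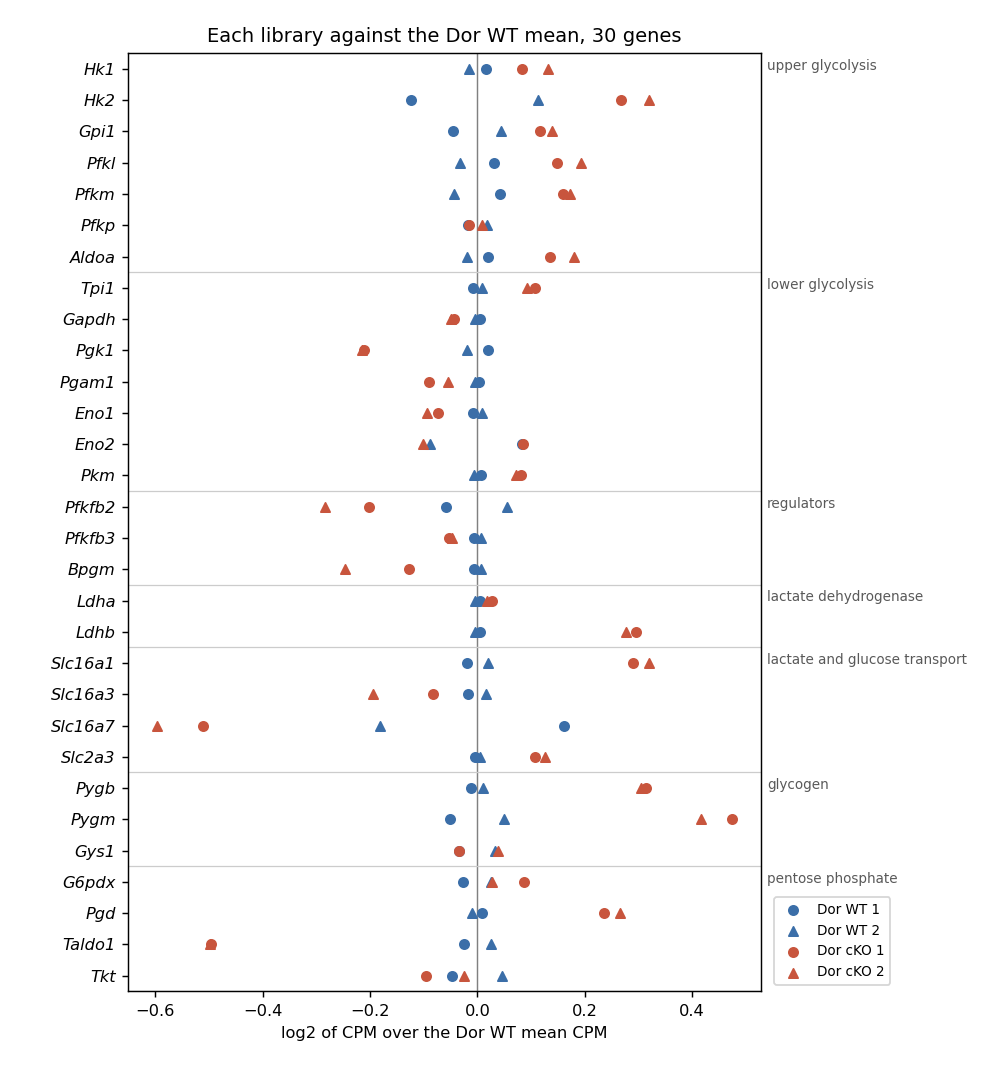
Each of the 30 genes is a line, and each of the 4 libraries a point at the log2 of its CPM over the mean CPM of the Dor WT libraries (blue Dor WT, red Dor cKO, circles library 1, triangles library 2). Red points lie furthest to the right for Pygm, Slc16a1, Pygb, Ldhb and Hk2, and furthest to the left for Slc16a7 and Taldo1.

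How firmly the calls hold depends on the spread assumed between libraries. The fitted coefficient of variation between libraries of a group was 0.0348. With it set at 0.1, only Pygm remained called higher, and only Taldo1 and Slc16a7 remained called lower, of the 30 genes. Of the 20 calls, Pygm and Taldo1 held under all 13 alternative analyses, and those of Aldoa, Pgk1, Ldhb, Slc16a1, Pygb and Pgd were lost only with that setting. No call changed direction under any of the 13. In limma on log2(TPM + 1), which takes TPM in place of counts, the calls that remained were those of Aldoa, Ldhb, Slc16a1, Pygb, Pygm and Pgd as higher and of Pgk1 and Taldo1 as lower. Without Dor cKO library 2, 10 of the 30 were called higher and 2 lower, and the median log2 fold change was 0.08.

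**Figure D2:**
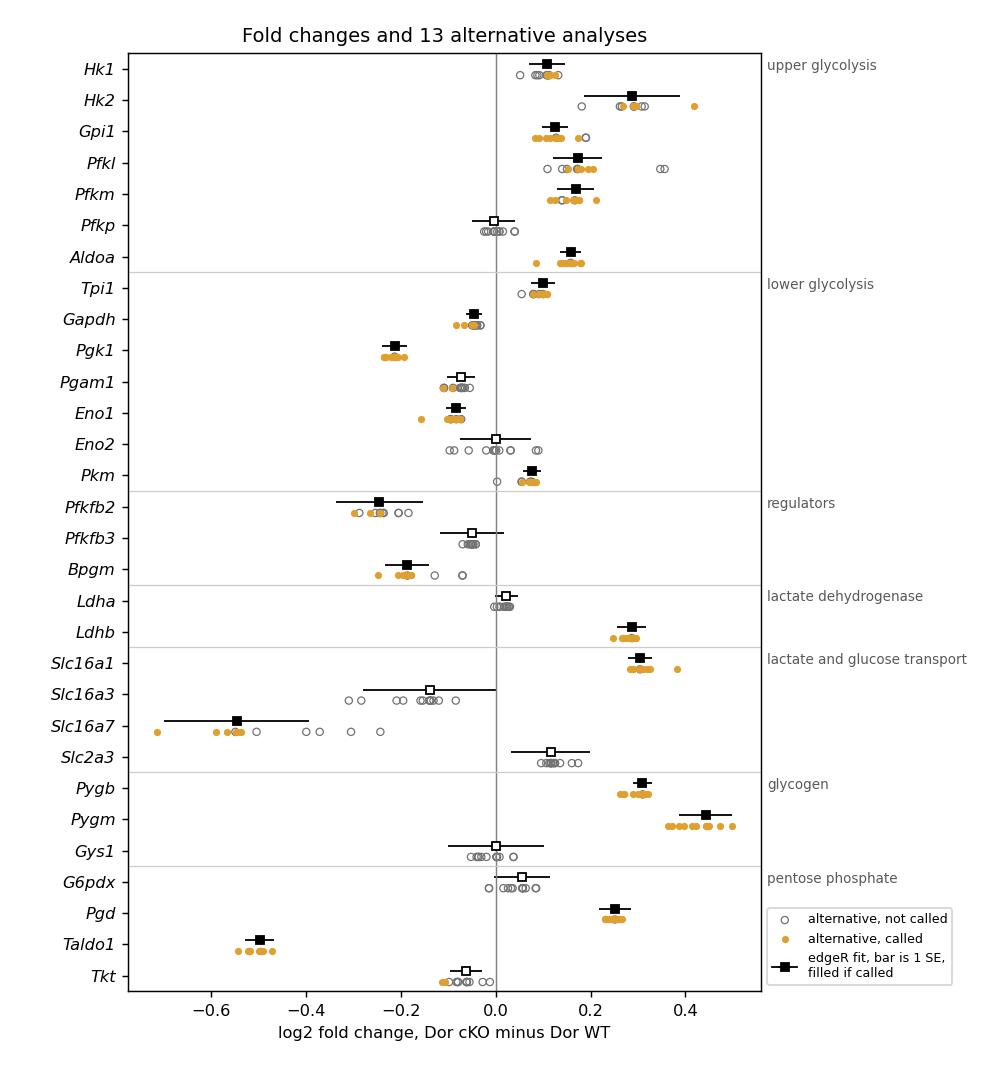
Squares give the log2 fold change, Dor cKO minus Dor WT, of each of the 30 genes in the edgeR fit with a bar of 1 SE, filled where the gene was called, and circles below them the 13 alternative analyses, filled orange where called. The circles of Ldhb, Slc16a1, Pygb, Pygm, Pgd and Taldo1 stay on one side and far from 0, and those of Slc16a7 spread most widely.

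On the per-length scale of TPM, Gapdh was the most abundant of the 30 at 1449 ± 53.6 TPM in Dor WT against 1417 ± 11.4 TPM in Dor cKO (SD, n = 2), followed by Aldoa at 633 ± 4.63 TPM in Dor WT against 701 ± 14.8 TPM in Dor cKO (SD, n = 2), then Pkm and Eno1. In Dor WT, Taldo1 came next, and its libraries overlapped those of Ldha. In Dor cKO, Taldo1 lay below Ldha, Tpi1 and Ldhb, and Ldhb had moved above Pgk1. The lowest levels belonged to Slc16a7 at 3.83 ± 0.12 TPM in Dor WT against 3.08 ± 0.01 TPM in Dor cKO (SD, n = 2), Hk2 at 5.15 ± 0.64 TPM in Dor WT against 6.38 ± 0.38 TPM in Dor cKO (SD, n = 2) and Gys1 at 8.24 ± 0.42 TPM in Dor WT against 8.02 ± 0.35 TPM in Dor cKO (SD, n = 2). The order of the 4 most abundant genes was the same in all 4 libraries.

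**Figure D3:**
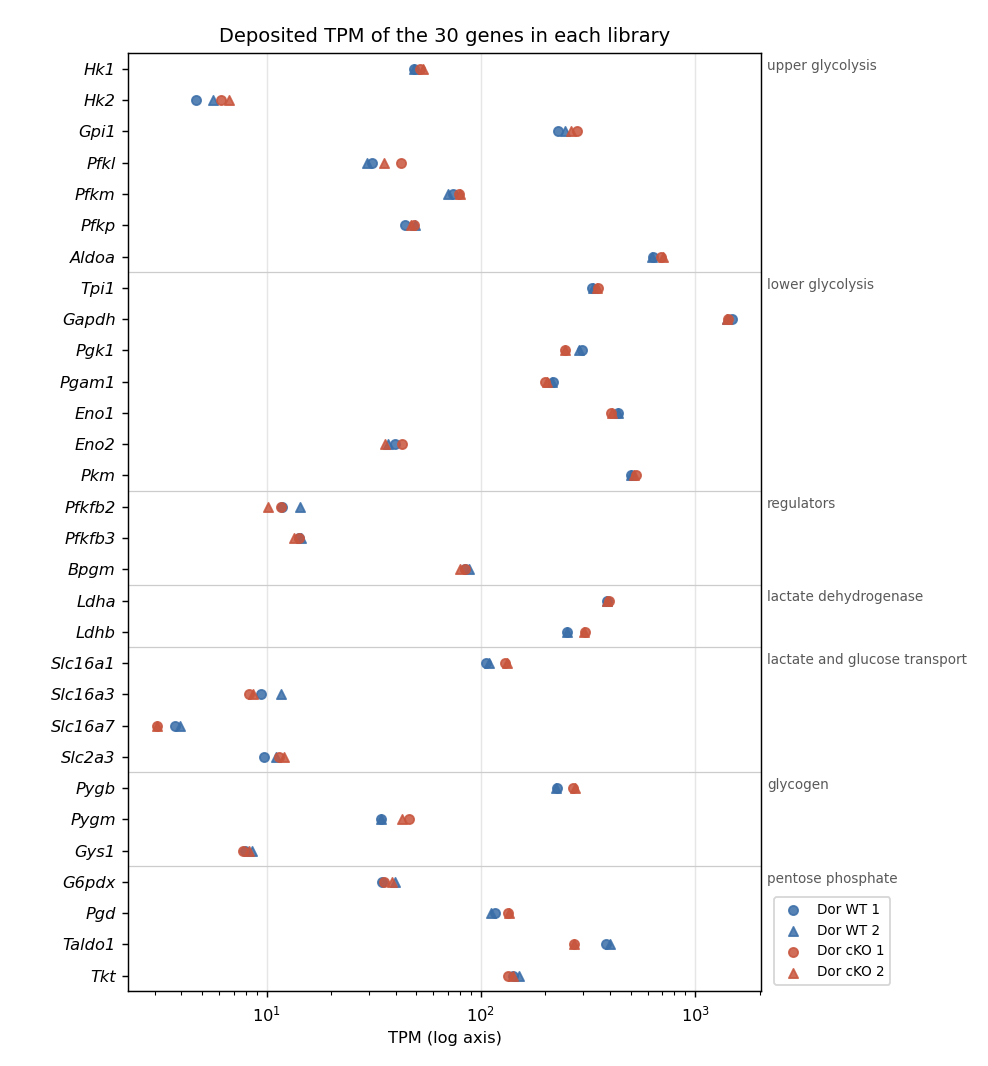
Deposited TPM of the 30 genes in the 4 libraries on a log axis, grouped by step (blue Dor WT, red Dor cKO, circles library 1, triangles library 2). Gapdh lies at the far right and Slc16a7 at the far left, and the blue and red points separate visibly for Taldo1, Ldhb, Slc16a1, Pygb and Pygm.

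The upper part of glycolysis, from glucose to triose phosphates, was higher in Dor cKO in 6 of its 7 genes, and none fell. Over all genes tested 14.3% were called higher. Of those at 100 CPM or more on average, 65.3% were called in either direction. Its summed TPM was 1067 and 1079.9 in Dor WT against 1198 and 1197 in Dor cKO, so the groups did not overlap. Most of that difference came from Aldoa and Gpi1, at means of 633 and 238 TPM in Dor WT against 701 and 271 TPM in Dor cKO. Aldoa, the aldolase isoform made in most tissues, was at 502 and 488 CPM in the Dor WT pair, against 544 and 560.4 CPM in the Dor cKO pair. Both Dor cKO libraries were above both Dor WT libraries (log2 fold change 0.16, SE 0.02, edgeR adjusted p = 1.68e-06). Pfkm, the muscle-type subunit of phosphofructokinase, was at 132 and 124 CPM in the Dor WT pair, against 143 and 144 CPM in the Dor cKO pair, and rose (log2 fold change 0.17, SE 0.04, edgeR adjusted p = 0.00106). Gpi1, glucose 6-phosphate isomerase, was at 304 and 323 CPM in the Dor WT pair, against 339.8 and 345 CPM in the Dor cKO pair. It rose (log2 fold change 0.13, SE 0.03, edgeR adjusted p = 0.000703), with Dor WT library 1 the lowest of the 4. Pfkl, the liver-type subunit, was at 70.1 and 66.99 CPM in the Dor WT pair, against 75.97 and 78.4 CPM in the Dor cKO pair, and rose (log2 fold change 0.17, SE 0.05, edgeR adjusted p = 0.0122). Pfkp, the platelet-type subunit, was at 89.8 and 92.04 CPM in the Dor WT pair, against 89.98 and 91.5 CPM in the Dor cKO pair, and its groups overlapped (log2 fold change -0.00, SE 0.05, edgeR adjusted p = 0.963). Phosphofructokinase catalyses the committed step of glycolysis, and Pfkm held the largest share of its RNA, 49.6% and 47.2% of the family's TPM in Dor WT against 46.4% and 49.2% in Dor cKO.

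Hexokinases trap glucose in the cell as glucose 6-phosphate. Hk1, the main hexokinase of brain, was at 123 and 120.2 CPM in the Dor WT pair, against 129 and 133 CPM in the Dor cKO pair, with no overlap between the groups (log2 fold change 0.11, SE 0.04, edgeR adjusted p = 0.0365). Hk2, the insulin- and hypoxia-responsive isoform, was at 17.04 and 20.1 CPM in the Dor WT pair, against 22.3 and 23.2 CPM in the Dor cKO pair, with the Dor WT libraries apart from each other (log2 fold change 0.29, SE 0.10, edgeR adjusted p = 0.0317). Hk1 made up 91.2% and 89.7% of the TPM of both genes in Dor WT against 89.4% and 89.0% in Dor cKO, a difference of -1.24 percentage points between group means. The calls of Hk1, Hk2 and Pfkl are the least firm of the 6. Hk1 lost its call without Dor WT library 2 (0.09, adjusted p = 0.157), Dor cKO library 1 (0.13, adjusted p = 0.0658) or Dor cKO library 2 (0.08, adjusted p = 0.284), with DESeq2 (adjusted p = 0.204), with scaling by total count (adjusted p = 0.0947), and after removal of the trend on length and GC (0.05, adjusted p = 0.385). Hk2 lost its call without Dor WT library 1 (0.18, adjusted p = 0.272), Dor cKO library 1 (0.31, adjusted p = 0.0947) or Dor cKO library 2 (0.26, adjusted p = 0.182), and with DESeq2 (adjusted p = 0.163). Pfkl lost its call without Dor WT library 2 (0.14, adjusted p = 0.101) or Dor cKO library 2 (0.15, adjusted p = 0.133), with DESeq2 (adjusted p = 0.096), and after removal of the length and GC trend (0.11, adjusted p = 0.137). Gpi1 went to a log2 fold change of 0.08 without Dor WT library 1 and Aldoa to 0.09 with the length and GC trend removed, both still called. Pfkl also had an uncertain transcript length, 3541 and 3554 bases in Dor WT against 2835 and 3429 bases in Dor cKO, and its log2 fold change in limma on log2(TPM + 1) was 0.35 with an adjusted p of 0.116.

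The lower part of glycolysis, from triose phosphates to pyruvate, was mixed: 2 of its 7 genes rose, 3 fell and 2 did not pass the test. Its summed TPM was 3307 and 3223 in Dor WT against 3197 and 3172 in Dor cKO. The calls make up 71.4% of the 7, against 27.7% of all genes tested and 65.3% of those at 100 CPM or more on average. Pgk1, phosphoglycerate kinase, which makes ATP in the first of the energy-yielding steps, moved most of the 7. It was at 315 and 307 CPM in the Dor WT pair, against 269 and 268 CPM in the Dor cKO pair, lower in both Dor cKO libraries by 1.16-fold (log2 fold change -0.21, SE 0.03, edgeR adjusted p = 1.99e-07). Eno1, the enolase of most tissues, was at 507 and 512 CPM in the Dor WT pair, against 484 and 477 CPM in the Dor cKO pair (log2 fold change -0.08, SE 0.02, edgeR adjusted p = 0.00356). Gapdh, glyceraldehyde 3-phosphate dehydrogenase, was at 991 and 984 CPM in the Dor WT pair, against 958 and 954 CPM in the Dor cKO pair (log2 fold change -0.05, SE 0.02, edgeR adjusted p = 0.0413). Both fell by less than 0.1 on the log2 scale, and for Gapdh the groups overlapped on the TPM scale, at 1487 and 1411 TPM in the Dor WT pair, against 1425 and 1409 TPM in the Dor cKO pair. Tpi1, triose phosphate isomerase, was at 301 and 304 CPM in the Dor WT pair, against 326 and 322 CPM in the Dor cKO pair, and rose (log2 fold change 0.10, SE 0.03, edgeR adjusted p = 0.00294). Pkm, pyruvate kinase, which makes pyruvate and ATP in the last step, was at 734 and 728 CPM in the Dor WT pair, against 773 and 769 CPM in the Dor cKO pair, and rose (log2 fold change 0.08, SE 0.02, edgeR adjusted p = 0.00193). The values of Pgam1, phosphoglycerate mutase, were 224 and 223 CPM in the Dor WT pair, against 210.1 and 215 CPM in the Dor cKO pair (log2 fold change -0.07, SE 0.03, edgeR adjusted p = 0.0708). Eno2, the enolase of neurons, was at 44.6 and 39.6 CPM in the Dor WT pair, against 44.7 and 39.3 CPM in the Dor cKO pair. Its libraries differed more within the groups than between them (log2 fold change 0.00, SE 0.07, edgeR adjusted p = 0.999).

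Among the 5 calls of the lower part, only that of Pgk1 held without each of the 4 libraries in turn. Gapdh was called in the fit with all 4 libraries and lost without Dor WT library 1 (-0.04, adjusted p = 0.112), Dor cKO library 1 (-0.05, adjusted p = 0.164) or Dor cKO library 2 (-0.04, adjusted p = 0.243), with DESeq2 (adjusted p = 0.166) and without the low-count filter (adjusted p = 0.214). Eno1 lost its call without Dor cKO library 2 (-0.07, adjusted p = 0.0912), and Tpi1 and Pkm lost theirs without Dor cKO library 1 (0.09, adjusted p = 0.063, and 0.07, adjusted p = 0.0505). Removing the trend on transcript length and GC content moved these genes downwards: Pkm went to 0.00 (adjusted p = 0.939), Tpi1 to 0.05 (adjusted p = 0.121), Eno1 to -0.16, Gapdh to -0.08, and Pgam1 to -0.11, where Pgam1 was called (adjusted p = 0.00455), as it was with total count scaling (-0.09, adjusted p = 0.0186). Some of these genes have copies elsewhere in the genome. A processed copy, Pgam1-ps2, held 90.3 to 142 counts, and the posterior standard deviation of the counts of the 30 genes was at most 0.575% of the count.

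The 300 bases around the start of transcription, 250 before and 50 after, were read for the 28 of the 30 genes that RefSeq's table on build GRCm38.p6 covers. They were searched for the core letters of the hypoxia response element, through which HIF factors act on glycolytic genes, spelled ACGTG or GCGTG on either strand, which read CACGT or CACGC where they lie on the other strand. The letters ACGTG are also part of the E-box CACGTG. At least 1 match was found in 76.2% of the 42 windows of these 28 genes, in 59.1% of the windows of genes tested and in 43.8% of all 32851 windows. The E-box was found in 11.9%, 9.27% and 7.15%. Some genes have several windows, and those of Aldoa, Eno1, Pfkfb2 and Pfkm overlap in part, so a match can count more than once. By gene, ACGTG or GCGTG was found for 23 of the 28, and for 7899 of 12158 tested genes with a window. The windows compared were not matched for GC content. The window of Pgk1 (chrX:106186850-106187149, plus strand), the lower glycolysis gene that moved most, is printed 5′ to 3′ on the strand of the gene, as all windows here, with the matches in capitals. A match is a run of letters, not a site known to be bound.
Pgk1: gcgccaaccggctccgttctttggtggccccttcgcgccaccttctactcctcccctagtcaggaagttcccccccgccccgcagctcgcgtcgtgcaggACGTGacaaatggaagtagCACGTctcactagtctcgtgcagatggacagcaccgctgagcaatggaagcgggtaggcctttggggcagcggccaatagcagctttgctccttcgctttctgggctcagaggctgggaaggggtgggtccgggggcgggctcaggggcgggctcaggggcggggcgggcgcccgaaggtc

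In CPM the 3 regulators lay lower in both Dor cKO libraries than in both Dor WT libraries, and 2 of them passed the test. Over all genes tested, 30.5% lay lower in this way, and 27.7% were called in either direction. Pfkfb2 and Pfkfb3 encode enzymes that set fructose 2,6-bisphosphate, the activator of phosphofructokinase, and Bpgm makes 2,3-bisphosphoglycerate. Bpgm was at 102 and 103 CPM in the Dor WT pair, against 94.2 and 86.7 CPM in the Dor cKO pair, and fell (log2 fold change -0.19, SE 0.05, edgeR adjusted p = 0.00279). Pfkfb2 was at 23.9 and 25.9 CPM in the Dor WT pair, against 21.7 and 20.5 CPM in the Dor cKO pair, and fell (log2 fold change -0.25, SE 0.09, edgeR adjusted p = 0.0458). Pfkfb3, the inducible isoform that favours glycolysis, was at 40.7 and 41.1 CPM in the Dor WT pair, against 39.4 and 39.6 CPM in the Dor cKO pair (log2 fold change -0.05, SE 0.07, edgeR adjusted p = 0.657). Its groups did not overlap in CPM, but it was not called. On the TPM scale they overlapped, at 14.18 and 14.48 TPM in the Dor WT pair, against 14.22 and 13.44 TPM in the Dor cKO pair. Neither call is firm. Bpgm lost its call without Dor cKO library 2 (-0.13, adjusted p = 0.122), the lowest of the 4, and in limma on log2(TPM + 1) (-0.07, adjusted p = 0.487). Pfkfb2 lost it without Dor WT library 2 (-0.18, adjusted p = 0.269), Dor cKO library 1 (-0.29, adjusted p = 0.0952) or Dor cKO library 2 (-0.20, adjusted p = 0.257), with DESeq2 (adjusted p = 0.225), without the low-count filter (adjusted p = 0.0632), and after removal of the length and GC trend (-0.20, adjusted p = 0.107). Pfkfb2 overlaps Yod1 on the opposite strand, at a mean of 465 counts against 316, and whether counting used strand is not stated in the sources used here.

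Lactate dehydrogenase is a tetramer of A and B subunits. The A subunit, from Ldha, favours lactate production, and the B subunit, from Ldhb, is the main form of tissues that oxidise lactate, such as heart. Ldhb rose and Ldha did not pass the test. Ldhb was at 179 and 178 CPM in the Dor WT pair, against 219 and 216 CPM in the Dor cKO pair, 1.22-fold higher in Dor cKO (log2 fold change 0.29, SE 0.03, edgeR adjusted p = 1.24e-08). Ldha was at 346 and 344 CPM in the Dor WT pair, against 352 and 349 CPM in the Dor cKO pair (log2 fold change 0.02, SE 0.02, edgeR adjusted p = 0.549). In CPM the Dor cKO libraries of Ldha lay just above those of Dor WT. On the TPM scale the groups overlapped, at 386.5 and 389.4 TPM in the Dor WT pair, against 394.2 and 386.4 TPM in the Dor cKO pair. Ldhb made up 39.5% and 39.2% of the TPM of both genes in Dor WT against 43.7% and 43.8% in Dor cKO, a difference of 4.37 percentage points between group means on the TPM scale and of 4.22 on the CPM scale. The ratio of Ldhb to Ldha in TPM was 0.653 and 0.646 in Dor WT against 0.775 and 0.780 in Dor cKO. The Ldhb call held without each library in turn.

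The promoter windows of these 2 genes differ in the letters searched. The upstream window of Ldha (chr7:46845554-46845853, plus strand) held 7 matches, of which 4 lie in 2 E-boxes, and that of Ldhb (chr6:142507908-142508207, minus strand) held 1. They are printed because these 2 genes of 1 enzyme differed in their call. A second window of Ldha (chr7:46846832-46847131, plus strand), not printed, held 2 matches, so the size of the contrast depends on the window.
Ldha: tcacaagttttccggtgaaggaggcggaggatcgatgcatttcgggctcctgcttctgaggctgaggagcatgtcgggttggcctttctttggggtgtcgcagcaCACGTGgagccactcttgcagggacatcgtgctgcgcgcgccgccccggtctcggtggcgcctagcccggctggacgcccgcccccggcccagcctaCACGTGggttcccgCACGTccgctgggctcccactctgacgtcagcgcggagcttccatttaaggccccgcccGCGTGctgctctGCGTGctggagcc
Ldhb: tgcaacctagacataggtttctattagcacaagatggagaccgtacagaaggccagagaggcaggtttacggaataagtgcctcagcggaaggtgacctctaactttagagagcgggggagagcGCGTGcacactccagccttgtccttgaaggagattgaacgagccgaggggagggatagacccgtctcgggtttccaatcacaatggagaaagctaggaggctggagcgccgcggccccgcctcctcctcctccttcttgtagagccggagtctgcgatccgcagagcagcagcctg

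**Figure D4:**
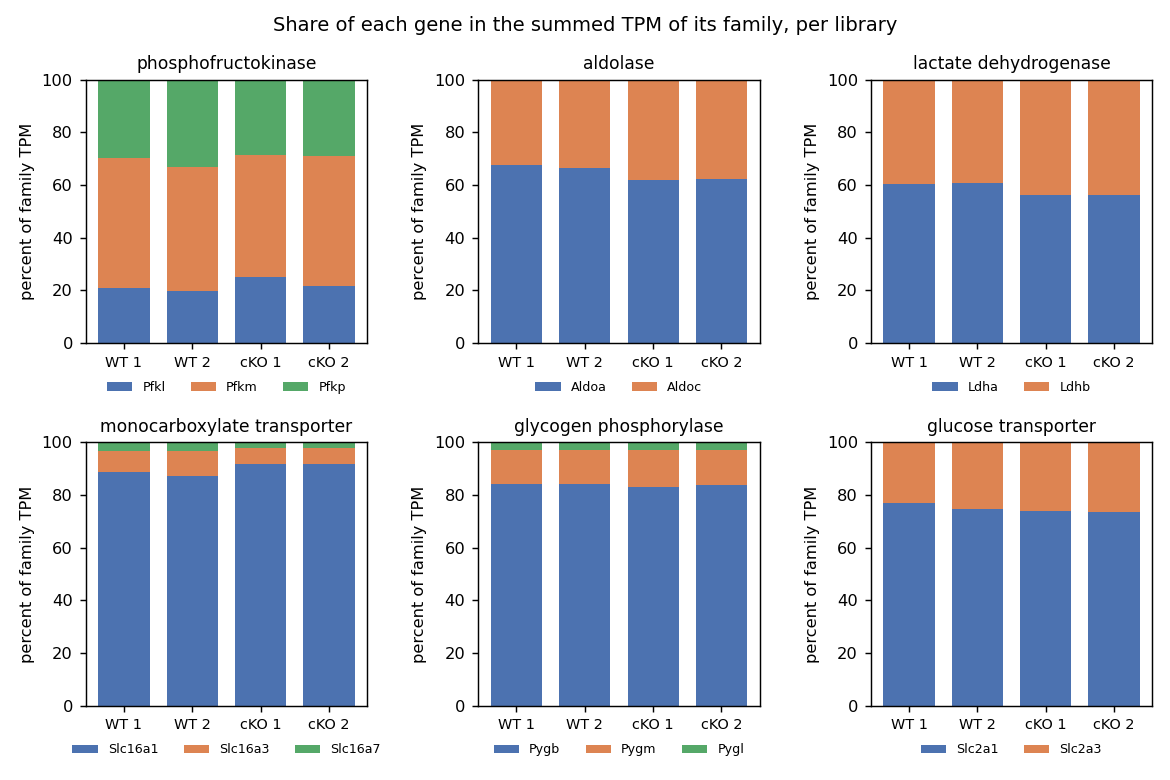
Stacked bars give, for each library, the percent of its family's summed TPM held by each gene, for 6 families that share a step; Aldoc, Pygl and Slc2a1 are not among the 30 genes. The Ldhb share is larger in both Dor cKO bars (43.7% and 43.8%) than in both Dor WT bars (39.5% and 39.2%), and the Slc16a1 share likewise.

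Of the 3 monocarboxylate transporters that carry lactate, 1 rose, 1 fell and 1 did not pass the test. Slc16a1 encodes MCT1, the lactate transporter of oligodendrocytes and of endothelial cells. It was at 303 and 312 CPM in the Dor WT pair, against 376 and 383 CPM in the Dor cKO pair, 1.23-fold higher in Dor cKO (log2 fold change 0.30, SE 0.03, edgeR adjusted p = 7.34e-11). Both Dor cKO libraries lay above both Dor WT libraries on the TPM scale too, at 105 and 109 TPM in the Dor WT pair, against 129 and 132 TPM in the Dor cKO pair. The transcript length was the same in all 4 libraries. Slc16a7 encodes MCT2, the high-affinity lactate transporter of neurons. It was at 12.4 and 9.76 CPM in the Dor WT pair, against 7.76 and 7.32 CPM in the Dor cKO pair, 1.46-fold lower in Dor cKO (log2 fold change -0.55, SE 0.15, edgeR adjusted p = 0.00712). It was the lowest of the 30 genes on the TPM scale, and its Dor WT libraries differed from each other. Slc16a3 encodes MCT4, the low-affinity transporter through which astrocytes release lactate. Its values were 10.1 and 10.3 CPM in the Dor WT pair, against 9.62 and 8.91 CPM in the Dor cKO pair (log2 fold change -0.14, SE 0.14, edgeR adjusted p = 0.531). Slc2a3 encodes GLUT3, the glucose transporter of neurons, and was at 25.3 and 25.4 CPM in the Dor WT pair, against 27.3 and 27.6 CPM in the Dor cKO pair (log2 fold change 0.12, SE 0.08, edgeR adjusted p = 0.343).

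Of the summed TPM of the 3 transporter genes, Slc16a1 held 88.9% and 87.4% in Dor WT against 92.0% and 91.9% in Dor cKO. The difference was 3.72 percentage points on the TPM scale and 2.23 on the CPM scale. The Slc16a7 call was lost without Dor WT library 1 (-0.37, adjusted p = 0.119) or Dor cKO library 2 (-0.50, adjusted p = 0.0755), with DESeq2 (adjusted p = 0.0581), after the length and GC trend was removed (-0.40, adjusted p = 0.0528) and in limma on log2(TPM + 1) (-0.24, adjusted p = 0.336), where its transcript length of 5038 and 3871 bases in Dor WT against 3863 and 3664 bases in Dor cKO enters. The Slc16a1 call held without each library in turn. Mature oligodendrocyte markers, all 12 lower in Dor cKO, and endothelial markers, 5 of 9 higher, belong to cell types that express Slc16a1, and their part in its difference was not tested. The promoter window of Slc16a1 (chr3:104638414-104638713, plus strand) held 5 matches to the letters searched, 2 of them in 1 E-box. It is printed because Slc16a1 had the smallest adjusted p of the transport genes.
Slc16a1: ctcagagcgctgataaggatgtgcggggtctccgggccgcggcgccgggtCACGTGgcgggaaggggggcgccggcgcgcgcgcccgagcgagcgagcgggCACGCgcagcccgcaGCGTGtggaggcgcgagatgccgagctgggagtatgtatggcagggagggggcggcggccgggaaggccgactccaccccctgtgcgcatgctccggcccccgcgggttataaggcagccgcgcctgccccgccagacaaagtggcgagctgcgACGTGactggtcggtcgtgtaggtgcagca

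Both glycogen phosphorylases among the 30 genes, which release glucose 1-phosphate from glycogen, rose, and glycogen synthase did not pass the test. The brain-type phosphorylase Pygb was at 514 and 522 CPM in the Dor WT pair, against 644 and 639 CPM in the Dor cKO pair, 1.24-fold higher in Dor cKO (log2 fold change 0.31, SE 0.02, edgeR adjusted p = 5.64e-13). The muscle-type phosphorylase Pygm, which astrocytes also make, was at 55.1 and 59.1 CPM in the Dor WT pair, against 79.3 and 76.1 CPM in the Dor cKO pair, 1.36-fold higher (log2 fold change 0.44, SE 0.06, edgeR adjusted p = 2.38e-07). No Dor WT library reached a Dor cKO library in either gene. Gys1, the glycogen synthase of most tissues, was at 18.5 and 19.4 CPM in the Dor WT pair, against 18.5 and 19.5 CPM in the Dor cKO pair, with overlapping groups (log2 fold change 0.00, SE 0.10, edgeR adjusted p = 0.997). The TPM ratio of Pygb to Gys1 was 28.5 and 26.2 in Dor WT against 34.7 and 33.2 in Dor cKO. Gys1 overlaps Ruvbl2 on the opposite strand, at a mean of 384 counts against 629, so its counts are uncertain. Both phosphorylase calls held without each library in turn.

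Pygm had the largest log2 fold change of the 30 genes in the upward direction, and skeletal muscle, which expresses it, was looked for among the markers. Of 13 muscle markers 5 were tested and none was called, with 3 of the 5 positive and a median log2 fold change of 0.19. The summed TPM of the 13 was 11.4 and 13.9 in Dor WT against 15.8 and 14.2 in Dor cKO. Of the 13, 3 lay above 1 TPM on average, while Myh4 was at 0 in all 4 libraries and Ckm at most at 0.79 TPM. The part of muscle in the Pygm result was not tested. Astrocyte markers, which rose in 9 of 10 genes with a median log2 fold change of 0.23, moved in the same direction as Pygm and Pygb, and their part in the result was not tested. The promoter windows of Pygb (chr2:150786546-150786845, plus strand) and Pygm (chr19:6384158-6384457, plus strand) held 2 matches each, and are printed because these genes rose together.
Pygb: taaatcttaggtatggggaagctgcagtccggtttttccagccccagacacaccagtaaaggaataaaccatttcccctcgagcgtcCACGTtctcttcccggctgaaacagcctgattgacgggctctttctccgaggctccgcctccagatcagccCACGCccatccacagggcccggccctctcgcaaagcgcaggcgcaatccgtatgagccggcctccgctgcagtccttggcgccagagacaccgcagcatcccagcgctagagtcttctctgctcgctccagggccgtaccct
Pygm: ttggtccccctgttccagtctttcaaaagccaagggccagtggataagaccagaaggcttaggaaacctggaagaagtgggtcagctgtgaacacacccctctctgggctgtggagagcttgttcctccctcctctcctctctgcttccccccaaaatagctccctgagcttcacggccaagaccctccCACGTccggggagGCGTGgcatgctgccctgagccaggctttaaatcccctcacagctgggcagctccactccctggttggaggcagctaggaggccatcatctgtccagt

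The pentose phosphate genes split. Pgd rose, Taldo1 fell, and G6pdx and Tkt did not pass the test. Taldo1 encodes transaldolase, which exchanges carbon units between the sugar phosphates of the pathway and of glycolysis. It was at 254 and 263 CPM in the Dor WT pair, against 183 and 183 CPM in the Dor cKO pair, 1.41-fold lower in Dor cKO, the smallest adjusted p of the 30 genes (log2 fold change -0.50, SE 0.03, edgeR adjusted p = 7.67e-14). Its TPM was 382 and 399 TPM in the Dor WT pair, against 272 and 272 TPM in the Dor cKO pair, and the call held under all 13 alternatives. Pgd encodes 6-phosphogluconate dehydrogenase, the second of the enzymes that make NADPH in the oxidative branch. It was at 153 and 151 CPM in the Dor WT pair, against 179 and 182 CPM in the Dor cKO pair, 1.19-fold higher (log2 fold change 0.25, SE 0.03, edgeR adjusted p = 5.97e-07). G6pdx encodes glucose 6-phosphate dehydrogenase, the gatekeeper of the oxidative branch, and was at 53.7 and 55.6 CPM in the Dor WT pair, against 58.02 and 55.7 CPM in the Dor cKO pair, with Dor WT library 2 and Dor cKO library 2 nearly level (log2 fold change 0.06, SE 0.06, edgeR adjusted p = 0.55). Tkt encodes transketolase, the partner of transaldolase, and was at 196 and 209 CPM in the Dor WT pair, against 189.6 and 199 CPM in the Dor cKO pair (log2 fold change -0.06, SE 0.03, edgeR adjusted p = 0.192).

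The TPM ratio of Pgd to Taldo1 was 0.306 and 0.280 in Dor WT against 0.491 and 0.497 in Dor cKO, and that of Tkt to Taldo1 was 0.369 and 0.376 in Dor WT against 0.494 and 0.517 in Dor cKO. The summed TPM of the 4 genes was 674 and 700.4 in Dor WT against 574 and 587 in Dor cKO, and Taldo1 was the most abundant of the 4 in every library. Taldo1 alone went from a mean of 390 TPM in Dor WT to 272 TPM in Dor cKO, a larger fall than that of the sum. Tkt was called lower without Dor WT library 1 (-0.11, adjusted p = 0.019) and after removal of the length and GC trend (-0.11, adjusted p = 0.0124). G6pdx overlaps Ikbkg on the opposite strand, at a mean of 1129 counts against 1060 for Ikbkg. The promoter window of Taldo1 (chr7:141391910-141392209, plus strand) held 2 matches to the letters searched.
Taldo1: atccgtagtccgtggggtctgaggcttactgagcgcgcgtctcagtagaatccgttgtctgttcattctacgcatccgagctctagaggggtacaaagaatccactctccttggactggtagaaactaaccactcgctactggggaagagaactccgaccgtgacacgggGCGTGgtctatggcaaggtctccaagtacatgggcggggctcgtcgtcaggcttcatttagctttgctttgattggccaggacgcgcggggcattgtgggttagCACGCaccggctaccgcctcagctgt

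The 30 genes lie on 14 chromosomes, with 7 on chromosome 6 and 5 on chromosome 7. On chromosome 6, Eno2, Tpi1 and Gapdh lie within 406 kb (chr6:124760053-125166467 of GRCm38). These neighbours did not move together: Tpi1 rose, Gapdh fell and Eno2 did not pass the test.

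Other genes of the same pathways were taken from lists made by function. Over 5 metabolic lists, 67 of 81 listed genes were tested, 17 rose and 5 fell, or 32.8%, near the 27.7% of all genes tested. The falls were less firm than the rises: with 6 genes lower over these lists and a list of hypoxia response genes, 0 were called lower without Dor cKO library 1 and 3 without Dor cKO library 2. Of 14 tested genes of glycolysis and gluconeogenesis outside the 30, 1 rose and 1 fell, or 14.3% called, against 27.7% of all genes tested. Aldoc, the aldolase isoform of astrocytes, was at 366 and 376 CPM in the Dor WT pair, against 514 and 515 CPM in the Dor cKO pair, and rose (log2 fold change 0.47, SE 0.02, edgeR adjusted p = 4.89e-16). As Aldoc rose by more than Aldoa, the Aldoa share of the TPM of both was 67.5% and 66.6% in Dor WT against 61.8% and 62.2% in Dor cKO.

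Of 9 tested glucose transporter genes, 3 rose and none fell, or 33.3% called, against 27.7% of all genes tested. Slc2a12, the transporter GLUT12, was at 95.1 and 94.4 CPM in the Dor WT pair, against 128 and 133 CPM in the Dor cKO pair (log2 fold change 0.46, SE 0.04, edgeR adjusted p = 3.50e-10). Slc2a13, a proton-coupled myo-inositol transporter, was at 56.6 and 61.2 CPM in the Dor WT pair, against 62.02 and 71.5 CPM in the Dor cKO pair (log2 fold change 0.18, SE 0.06, edgeR adjusted p = 0.0398). Slc2a4, the insulin-responsive GLUT4, was at 15.02 and 18.05 CPM in the Dor WT pair, against 24.2 and 24.9 CPM in the Dor cKO pair (log2 fold change 0.56, SE 0.10, edgeR adjusted p = 7.15e-05). Of the 9 in CPM, 4 lay higher in both Dor cKO libraries than in both Dor WT libraries, 1 lay lower and 4 overlapped. Over all genes tested, 30.2% lay higher and 30.5% lower.

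Of 8 tested pentose phosphate genes outside the 30, 1 rose and 1 fell. H6pd, the glucose 6-phosphate dehydrogenase of the endoplasmic reticulum, was at 24.9 and 27.4 CPM in the Dor WT pair, against 34.8 and 29.6 CPM in the Dor cKO pair (log2 fold change 0.29, SE 0.09, edgeR adjusted p = 0.011). Rpe, ribulose phosphate epimerase, was at 35 and 32.5 CPM in the Dor WT pair, against 28.5 and 29.2 CPM in the Dor cKO pair (log2 fold change -0.22, SE 0.08, edgeR adjusted p = 0.0309). The median log2 fold change of the 8 was -0.02.

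Of 23 tested glycogen genes outside the 30, 4 rose and 3 fell, with a median log2 fold change of 0.07. That is 30.4% called, near the 27.7% of all genes tested. Gaa, the acid glucosidase that breaks down glycogen in lysosomes, was at 240.2 and 249.6 CPM in the Dor WT pair, against 270.5 and 265 CPM in the Dor cKO pair (log2 fold change 0.13, SE 0.03, edgeR adjusted p = 0.000988). Ppp1r3c and Ppp1r3b encode subunits that target protein phosphatase 1 to glycogen and so favour its synthesis. Ppp1r3c was at 78.8 and 72.1 CPM in the Dor WT pair, against 90.9 and 87.9 CPM in the Dor cKO pair (log2 fold change 0.25, SE 0.05, edgeR adjusted p = 0.000381), and Ppp1r3b at 59.9 and 62.3 CPM in the Dor WT pair, against 77.8 and 78.5 CPM in the Dor cKO pair (log2 fold change 0.35, SE 0.05, edgeR adjusted p = 4.43e-06). Ugp2, which makes UDP-glucose, was at 80.2 and 77.6 CPM in the Dor WT pair, against 71.1 and 70.1 CPM in the Dor cKO pair (log2 fold change -0.16, SE 0.05, edgeR adjusted p = 0.0178). Gyg, the glycogenin that primes glycogen, was at 40.4 and 38.9 CPM in the Dor WT pair, against 32.96 and 33.2 CPM in the Dor cKO pair (log2 fold change -0.26, SE 0.07, edgeR adjusted p = 0.00625). Pgm2l1, glucose 1,6-bisphosphate synthase, was at 21.1 and 21.5 CPM in the Dor WT pair, against 17.3 and 17.1 CPM in the Dor cKO pair (log2 fold change -0.31, SE 0.10, edgeR adjusted p = 0.0185). The last 3 fell, while Ppp1r3b and Ppp1r3c rose.

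Of 13 tested genes of monocarboxylate transport outside the 30, 8 rose and none fell, against 14.3% higher and 13.4% lower over all genes tested, with a median log2 fold change of 0.34. Bsg encodes basigin, the chaperone that takes MCT1 and MCT4 to the membrane. It was at 526 and 516 CPM in the Dor WT pair, against 614 and 606 CPM in the Dor cKO pair, and rose in the same direction as Slc16a1 (log2 fold change 0.23, SE 0.02, edgeR adjusted p = 5.06e-10). Slc16a9, a carnitine transporter in human cells, was at 60.3 and 61.97 CPM in the Dor WT pair, against 77.2 and 77.6 CPM in the Dor cKO pair (log2 fold change 0.34, SE 0.05, edgeR adjusted p = 8.10e-06). Slc16a6, Slc16a11, Slc16a12, Slc16a13 and Hcar1, the lactate receptor, also rose, and most of these proteins are not known as lactate carriers.

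Hypoxia response genes, many of them targets of HIF factors, rose in 9 of 20 and fell in 1, with a median log2 fold change of 0.16. Over all genes tested, 14.3% were called higher and 13.4% lower. Of those at 100 CPM or more on average, as are the genes named here, 65.3% were called in either direction. Ndrg1, a hypoxia-induced gene that is also made in myelinating glia, was at 277 and 286 CPM in the Dor WT pair, against 364 and 368 CPM in the Dor cKO pair (log2 fold change 0.38, SE 0.03, edgeR adjusted p = 9.77e-13). Mxi1, a repressor of Myc targets, was at 115 and 124 CPM in the Dor WT pair, against 137 and 141 CPM in the Dor cKO pair (log2 fold change 0.21, SE 0.04, edgeR adjusted p = 0.000131). Epas1, which encodes HIF-2 alpha and is abundant in endothelial cells, was at 112 and 108 CPM in the Dor WT pair, against 124 and 125 CPM in the Dor cKO pair (log2 fold change 0.18, SE 0.04, edgeR adjusted p = 0.0011). The 1 that fell was Hif1a itself, at 124 and 122 CPM in the Dor WT pair, against 105 and 112 CPM in the Dor cKO pair (log2 fold change -0.18, SE 0.04, edgeR adjusted p = 0.00153).

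**Figure D5:**
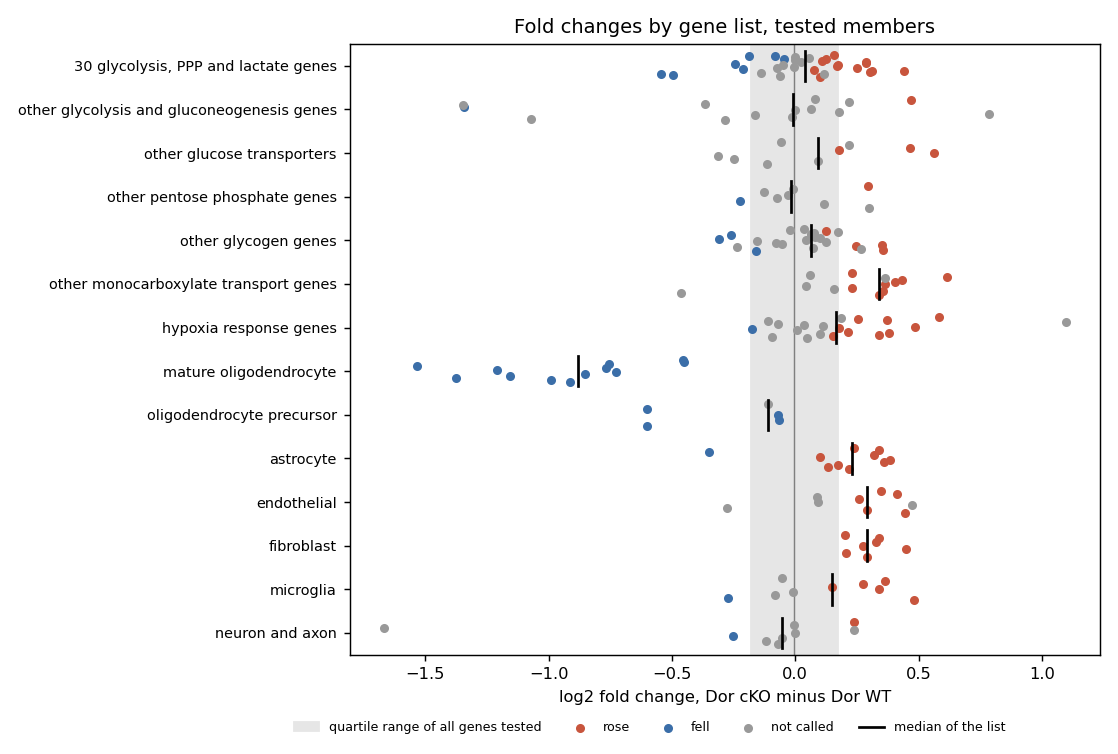
Each point is a tested gene at its log2 fold change, Dor cKO minus Dor WT, in the 30 genes, 6 other pathway lists and 7 lists of cell type markers (red rose, blue fell, grey not called), with a black line at the median of each list and a grey band from the lower to the upper quartile of all genes tested. The median of the 30 genes (0.04) lies near 0, that of the other monocarboxylate transport genes at 0.34, and the mature oligodendrocyte markers lie entirely to the left with a median of -0.88.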

How the data were processed

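RNA of mouse optic nerves was sequenced in 2 Dor WT and 2 Dor cKO libraries, from 2 micrograms of total RNA with a stranded mRNA kit, per the labels' protocols. Trimmomatic 0.36, STAR 2.7.9a, RSEM 1.3.1 and build GRCm38 are named in the submitters' processing notes, with no role given. The authors deposited 1 RSEM gene table per library, which holds, per the file headers, expected counts, TPM, transcript length and the posterior standard deviation of the count. Annotation release and strand setting are not stated in the sources used here. Symbols and coordinates were taken from GENCODE M21 on the same build and matched 55141 of 55401 identifiers; the 260 without a symbol held 0.00297% of counts. Of 2 identifiers with the symbol Aldoa, the one with 13 to 23 counts was left aside.

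Expected counts were rounded, filtered (filterByExpr, minimum count 10, minimum total 15), scaled by TMM and compared with the quasi-likelihood test of edgeR 4.0.16, with a robust fit and Benjamini-Hochberg adjustment over 16751 genes. The SE is the size of the log2 fold change over the square root of F. CPM uses the TMM-scaled library sizes, and a floor of 3 counts is 0.139 to 0.174 CPM. Shares, ratios and levels across genes use the deposited TPM, with no test, since 2 libraries against 2 cannot give an exact permutation p below 0.333. Within each group the libraries differed by more than counting noise, with a chi-square per degree of freedom of 2.69 in Dor WT and 2.24 in Dor cKO, so neither pair was taken as copies of 1 library, which does not show that they came from separate animals. The alternatives were DESeq2 1.42.0, 2 other scalings, no filter, limma 3.58.1 on log2(TPM + 1) and log2(TPM + 0.1), a replicate block, a coefficient of variation set at 0.1, removal of a loess trend on length and GC, and each library left out. The scripts were tested on simulated data.

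The members, lists and tests were chosen with earlier results of these data known. All 30 genes are named; of each other pathway list, up to 3 called genes per direction with the highest mean CPM, of which 2 are not reported here; other genes in the text were named after their values were seen.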

Additional observations from a re-analysis of the deposited data

How the results depend on the processing

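Directions of the 20 calls among the 30 genes held under all 13 alternatives. Over all genes, 2399 were called higher and 2248 lower, against 1549 and 1392 with DESeq2, 666 and 722 in limma on log2(TPM + 1), 672 and 734 in limma on log2(TPM + 0.1), and 703 and 891 when the coefficient of variation was 0.1. Of the 30 genes, 13 were called higher and 7 lower, against 10 and 4 with DESeq2, 6 and 2 with either pseudocount in limma, 1 and 2 at a coefficient of variation of 0.1, and 9 and 7 after removal of the length and GC trend. Of the 6 other pathway lists, 26 genes were called higher and 6 lower, against 7 and 0 in limma on log2(TPM + 1), 8 and 0 in limma on log2(TPM + 0.1), 6 and 2 with the set coefficient of variation, 1 lower with DESeq2 and 3 lower with the length and GC trend removed.

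Leaving out each library in turn gave 1697 to 2267 genes called higher and 1613 to 2102 lower, 9 to 12 of the 30 higher and 2 to 6 lower, 20 to 25 of the other pathway genes higher and 0 to 6 lower, and a median log2 fold change of the 30 of 0.032 to 0.082. Without Dor cKO library 2, 2 of the 30 genes were called lower, and without Dor cKO library 1 no other pathway gene was. With 1 library left in a group, that library is assumed to vary like the others.

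The Slc16a1 share difference of 3.72 percentage points was 2.23 on the CPM scale. The replicate numbers were taken as a block for comparison only. Deviations of libraries with the same number correlated at -0.0177 over all genes tested, many of them with few counts. What the numbers stand for is not stated, and whether libraries with the same number share an origin was not tested. With the replicate block, 2562 genes were called higher and 2409 lower, and 13 and 6 of the 30, Gapdh being lost (adjusted p = 0.0539). The floor of 3 counts lies below all 30 genes in every library. The cause of these differences between settings was not tested.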
